A study of Mus musculus and Ictidomys tridecemlineatus with 36 samples.

Results

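*Crx* (ENSMUSG00000041578.15) encodes the cone-rod homeobox protein, and the data described here are the CUT&RUN peaks in and around this gene in the P2 mouse retina. On GRCm38 the gene lies on the minus strand at chr7:15865947-15879968, so its transcription start site (TSS) is the last of these bases. Members were all peaks of the 5 mouse lists that shared at least 1 bp with the gene or with the 50 kb on either side of it, a window of 114022 bp at chr7:15815947-15929968. The rule was met by 45 of the 246656 peaks in the mouse lists, and the 10 lists of both species hold 532904 peaks. Of the 45 peaks, 6 were H3K4me3, 9 H3K27ac, 19 H3K4me1, 8 Otx2 and 3 Neurod1. The rule used position alone, and no measured value chose a peak.

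The study set P5 retina of the 13LGS, a ground squirrel rich in cones, beside P2 retina of the rod-rich mouse, stages rich in late progenitors and photoreceptor precursors, and only the mouse lists are used here. In CUT&RUN, an antibody brings a nuclease to a chromatin mark or a factor, and the short fragments it cuts free are sequenced. Of the 36 libraries, 20 are from mouse, with 2 each for H3K4me3, H3K27ac, H3K4me1 and the IgG control, 4 for Neurod1 and 8 for Otx2. They come from 2 biological replicates, each a pool of whole retinas from 3 mice whose strain and genotype the labels do not give, and 4 of the Otx2 libraries used an antibody from R&D Systems and 4 one from Atlas Antibodies. Peaks had been called once per target over all its libraries against IgG, at a q-value of 0.05. A peak therefore has 1 fold enrichment over IgG and 1 −log10 q for all libraries, with no spread between replicates, and the 2 Otx2 antibodies cannot be told apart. The lists hold no read totals, so depth is unknown. For these reasons no difference below was tested, and each value is set beside its whole list or beside the 21935 protein-coding genes of GENCODE M21. Because whole retina was used, a peak in a subset of cells cannot be told apart from a weaker one in most of them.

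Crx is a homeodomain protein of the Otx family that binds DNA at the core sequence TAATCC and activates the genes of phototransduction and the outer segment in rods and cones. It is switched on as photoreceptor precursors leave the cell cycle, and Otx2, its close relative, acts upstream of it in these cells. Neurod1 is a basic helix-loop-helix factor of photoreceptor and amacrine precursors that binds E-boxes, the general form of which is CANNTG and the preferred form CAGATG. H3K4me3 marks active promoters, H3K27ac active promoters and enhancers, and H3K4me1 the flanks of promoters and enhancers whether active or poised. Mutation of the human gene causes cone-rod dystrophy and related blindness from early life.

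The sequences that carry the factor peaks are shown first, all 5′ to 3′ on the minus strand of GRCm38, so that they read in the direction of *Crx* transcription. Capitals mark matches on either strand to TAATCC, which reads GGATTA on the other strand, and to CAGATG, which reads CATCTG. The promoter comes from the RefSeq promoter table of GRCm38.p6, and runs from −237 to +62 bp of the GENCODE start, and the others come from the reference genome. Positions are given in bp from the TSS, negative upstream and positive in the direction of *Crx* transcription.
Crx promoter, chr7:15879906-15880205, minus strand: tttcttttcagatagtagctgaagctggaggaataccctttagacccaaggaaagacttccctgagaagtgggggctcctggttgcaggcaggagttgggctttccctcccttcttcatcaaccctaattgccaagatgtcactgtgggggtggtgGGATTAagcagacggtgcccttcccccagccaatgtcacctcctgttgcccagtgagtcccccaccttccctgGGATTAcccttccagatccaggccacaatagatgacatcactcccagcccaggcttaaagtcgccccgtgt
Otx2 summit at −1452 bp, chr7:15881320-15881519, minus strand: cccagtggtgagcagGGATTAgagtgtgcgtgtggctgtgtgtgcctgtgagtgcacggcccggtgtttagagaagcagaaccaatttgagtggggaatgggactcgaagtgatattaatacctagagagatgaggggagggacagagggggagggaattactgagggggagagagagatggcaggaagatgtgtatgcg
Element past the 3′ end of Crx, chr7:15864230-15864529, minus strand: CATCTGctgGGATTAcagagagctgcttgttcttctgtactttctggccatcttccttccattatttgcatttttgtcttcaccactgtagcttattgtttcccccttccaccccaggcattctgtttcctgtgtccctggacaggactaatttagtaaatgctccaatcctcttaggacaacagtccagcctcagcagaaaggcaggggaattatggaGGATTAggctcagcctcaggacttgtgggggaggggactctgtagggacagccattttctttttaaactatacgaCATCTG
Otx2 summit at −25886 bp, chr7:15905754-15905953, minus strand: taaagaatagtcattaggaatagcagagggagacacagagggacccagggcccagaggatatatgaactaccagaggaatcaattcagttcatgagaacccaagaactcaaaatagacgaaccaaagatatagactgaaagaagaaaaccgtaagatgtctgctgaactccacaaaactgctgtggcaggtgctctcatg
Neurod1 summit at −28342 bp, chr7:15908210-15908409, minus strand: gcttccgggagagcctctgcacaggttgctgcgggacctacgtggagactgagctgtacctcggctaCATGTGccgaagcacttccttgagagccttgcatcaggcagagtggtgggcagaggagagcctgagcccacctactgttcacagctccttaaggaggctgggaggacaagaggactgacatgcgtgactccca
The promoter is shown because all 5 targets covered it, and the next sequence because it holds the summit of the highest Otx2 peak. The element past the 3′ end held the only other pair of overlapping Otx2 and Neurod1 peaks. The distal Otx2 and Neurod1 sequences are shown as factor summits without either core motif, and in the last of them the capitals mark the single CANNTG within 50 bp of the summit.

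At the *Crx* TSS, all 5 targets had a peak within 1 kb. The H3K4me3 peak there had a fold enrichment of 46.3 over IgG and the H3K27ac peak 5.85. The H3K4me1 peak reached 10.2, the Otx2 peak 14.6 and the Neurod1 peak 3.26. Among all protein-coding genes, 52.7% had an H3K4me3 peak within 1 kb of the TSS, 15.8% an H3K27ac peak, 57.6% an H3K4me1 peak, 46.9% an Otx2 peak and 4.23% a Neurod1 peak. Peaks of all 5 targets were found at 1.72% of genes, 377 in number, and Otx2 with Neurod1 at 4.09%. Among the 11552 genes that had H3K4me3, the share with all 5 was 3.26%, so *Crx* belonged to a small class even of marked promoters. Within that group H3K27ac was present at 27.4%, H3K4me1 at 86.6%, Otx2 at 85% and Neurod1 at 7.37%.

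The size of these peaks differed by target. Of the 21935 genes, 46 had an Otx2 peak of at least the *Crx* fold at the TSS, or 0.210% with *Crx* counted, and the median over the 10298 genes with an Otx2 peak was 3.92. For H3K27ac the number was 238, or 1.09%, against a median of 3.38. For H3K4me3 it was 601, or 2.74%, against a median of 17.6. The H3K4me1 fold was less extreme, with 1467 genes, or 6.69%, at or above it. The Neurod1 fold of *Crx* lay at the middle among the 928 genes with a Neurod1 peak at the TSS. Of these, 474, or 51.1%, had at least the same fold, and the median was 3.29. In the whole Neurod1 list, 67.1% of peaks had at least that fold. A Neurod1 peak at a TSS was uncommon among genes, and at *Crx* its fold was close to the median of those that had one. No protein-coding gene other than *Crx* had at least the *Crx* fold for all 5 targets. The limits here were the folds of *Crx* itself, and how many other genes would be unmatched by the same rule was not counted. It therefore does not set *Crx* apart. The neighbouring gene *Crxos* had the same H3K4me3, H3K27ac, H3K4me1 and Otx2 folds, from the same peaks. It lacked only a Neurod1 peak within 1 kb of its TSS, so the result rests on that distance.

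**Figure D1:**
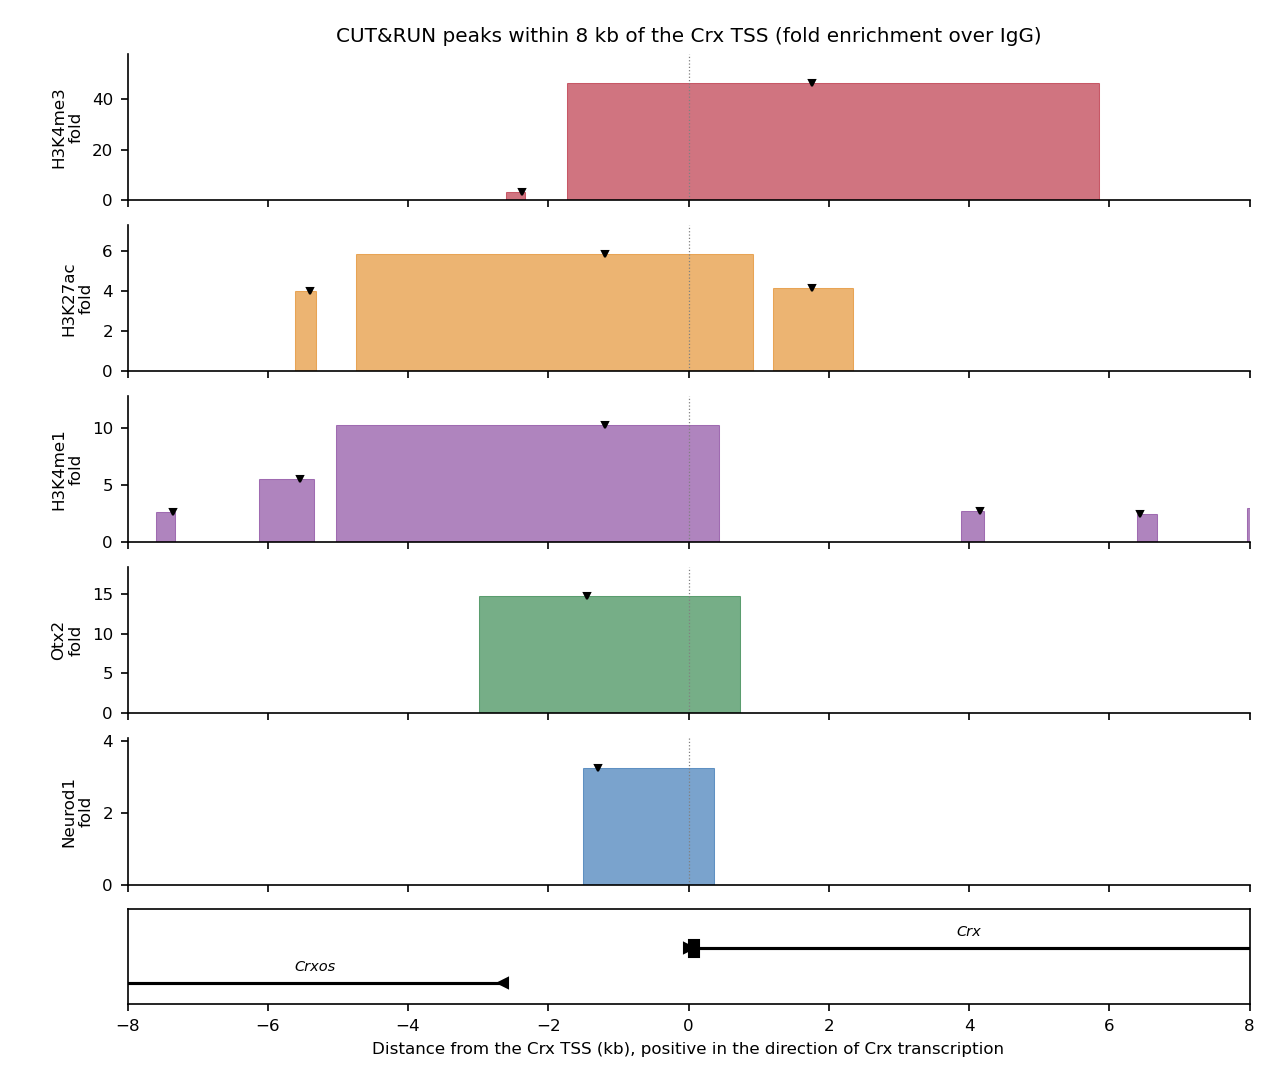
Peaks within 8 kb of the *Crx* TSS. The x axis is the distance from the TSS in kb, each panel is a target, the boxes span the peaks, their heights on the y axis are fold enrichment over IgG and the triangles are summits. The H3K4me3 peak lies mostly downstream of the TSS, and the other 4 peaks that cover the TSS lie mostly upstream with summits between −1195 and −1452 bp.

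The peaks over the TSS were wide, and the H3K4me3 summit and the factor summits lay on different sides of it. Both factor summits nevertheless lay inside the H3K4me3 peak. The H3K4me3 peak at chr7:15874112-15881707 was 7596 bp wide, the 29th widest of 14069, and ran from 1739 bp upstream to 5856 bp downstream, across exon 1 and into the first intron. Its summit was at +1763 bp in that intron. The H3K27ac peak at chr7:15879046-15884710 was 5665 bp wide and the H3K4me1 peak at chr7:15879540-15884995 was 5456 bp wide. Both extended the other way, reaching 4742 bp and 5027 bp upstream, and their summits at −1195 and −1196 bp lay 1 bp apart. The Otx2 peak at chr7:15879232-15882954 was 3723 bp wide, 21st by width of 29115 Otx2 peaks and 178th by fold, with its summit at −1452 bp. The Neurod1 peak at chr7:15879610-15881467 was 1858 bp wide, 20th by width of 4744 Neurod1 peaks but 3181st by fold, with its summit at −1295 bp.

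Measured against other genes, these summits were far from the start site. Only peaks that reach within 1 kb of a TSS were compared, so a summit farther out needs a peak wide enough to reach back. Summit distance and width are thus not separate traits. Over the genes with an H3K4me3 peak at the TSS, the median summit was at +213 bp and 0.822% had a summit at least as far downstream as that of *Crx*. The median Otx2 summit was at +34 bp and 0.350% of genes had one at least as far upstream. For H3K27ac the share was 1.44% around a median of +136 bp, and for Neurod1 1.29% around +59 bp. The H3K4me1 summit was less unusual, with 6.84% of genes at least as far upstream. The widths stood out in the same way, since 0.165% of genes with an Otx2 peak at the TSS had one at least as wide, 0.225% of those with H3K4me3, 0.404% with H3K27ac, 0.754% with Neurod1 and 4.58% with H3K4me1. A second H3K27ac peak, at chr7:15877617-15878759 with a fold of 4.19, lay inside the H3K4me3 domain with its summit on the same base as the H3K4me3 summit, at +1763 bp. Summits at most 10 bp apart were found in 4.85% of all overlapping H3K4me3 and H3K27ac peaks and in 3.9% of overlapping H3K27ac and H3K4me1 peaks. In the window they were found in 1 of 5 and 1 of 8 such pairs.

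A neighbouring promoter shares part of this domain. *Crxos*, the gene transcribed the opposite way from *Crx*, has its TSS at −2649 bp, within 1 kb of the same H3K4me3, H3K27ac, H3K4me1 and Otx2 peaks but not of the Neurod1 peak. The Otx2 summit at −1452 bp lay between both start sites, 1197 bp from the *Crxos* start. The H3K27ac, H3K4me1 and Otx2 peaks covered both start sites and therefore cannot be given to one of the 2 genes. The wide H3K4me3 peak and the Neurod1 peak reached 1739 and 1499 bp upstream and covered the *Crx* TSS only. A separate H3K4me3 peak of 269 bp, with a fold of 3.38 and a summit at −2377 bp, lay beside the *Crxos* TSS. Within *Crxos*, an H3K27ac peak with a fold of 4.003 and a summit at −5404 bp overlapped an H3K4me1 peak with a fold of 5.58, and 2 more H3K4me1 peaks had folds of 2.66 and 3.12. No factor had a peak there beyond the reach of the promoter peak.

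The *Crx* promoter sequence above holds 2 TAATCC matches, centred at −79 and −6 bp. Of the 32851 promoters in the RefSeq table, 7.06% held at least 1 match and 0.359%, 118 in number, at least 2. The 300 bases hold no CAGATG, which 17.2% of promoters did. Within the whole Otx2 peak there were 3 TAATCC and 4 CAGATG matches, and the TAATCC nearest the summit, centred at −1534 bp, was 82 bp from it. The 2 matches at the TSS were 1374 and 1447 bp from the summit of the peak that covers them. A match is a string of letters in the reference and was not tested as a binding site.

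Past the 3′ end of *Crx* lay the second region with all 5 targets. Its Otx2 peak, at chr7:15863752-15864969, was 1218 bp wide with its summit at +15511 bp, 1490 bp beyond the last base of the gene. The fold of 10.6 ranked it 634th of the Otx2 list, so 2.18% of Otx2 peaks were as high or higher. The Neurod1 peak there, at chr7:15863886-15864675, had a fold of 3.90, the highest of the 3 in the window and close to the list median of 3.78. Its summit at +15779 bp was 268 bp from that of Otx2, while the Otx2 and Neurod1 summits at the promoter were 157 bp apart. The H3K4me1 peak at chr7:15863185-15865665 had a fold of 6.57 and was 2481 bp wide, against a list median of 805 bp. Its acetylation and its H3K4me3 were low, and they decide how it is classed.

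The H3K27ac signal there came as a pair of peaks with folds of 3.68 and 3.37 and −log10 q of 4.81 and 4.16, near the list median fold of 3.36. The H3K4me3 peak there had a fold of 2.98 and a −log10 q of 2.49, and 96.6% of H3K4me3 peaks had at least that fold. Following the study's scheme, a peak with H3K4me3 is called a promoter, one with H3K27ac and no H3K4me3 an active enhancer, and one with H3K4me1 alone a poised enhancer. By overlap alone this element was a promoter, and with histone peaks limited to a −log10 q of at least 5 it was a poised enhancer. No annotated *Crx* transcript starts there, since the starts of the 5 transcripts lie at 0, +96, +124, +7580 and +8566 bp.

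The printed stretch of this element, chr7:15864230-15864529, begins and ends with a CAGATG match and holds 2 TAATCC matches between them. The TAATCC matches were 61 and 150 bp from the Otx2 summit, and one CAGATG match was 44 bp from the Neurod1 summit. The first 6 bases and the first TAATCC match of the stretch are separated by 3 bases. This was the only Neurod1 peak of the window with CAGATG within 150 bp of its summit, which 44.1% of Neurod1 peaks had, and 9.76% had one within 50 bp. Over the whole peak, CAGATG was found in 2 of the 3, beside 58.2% of the list. TAATCC within 150 bp was found at 2 of the 8 Otx2 summits, here and upstream of the promoter, beside 16% of all Otx2 peaks. Within 50 bp it was found at none of the 8, and at 2.53% of the list.

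**Figure D2:**
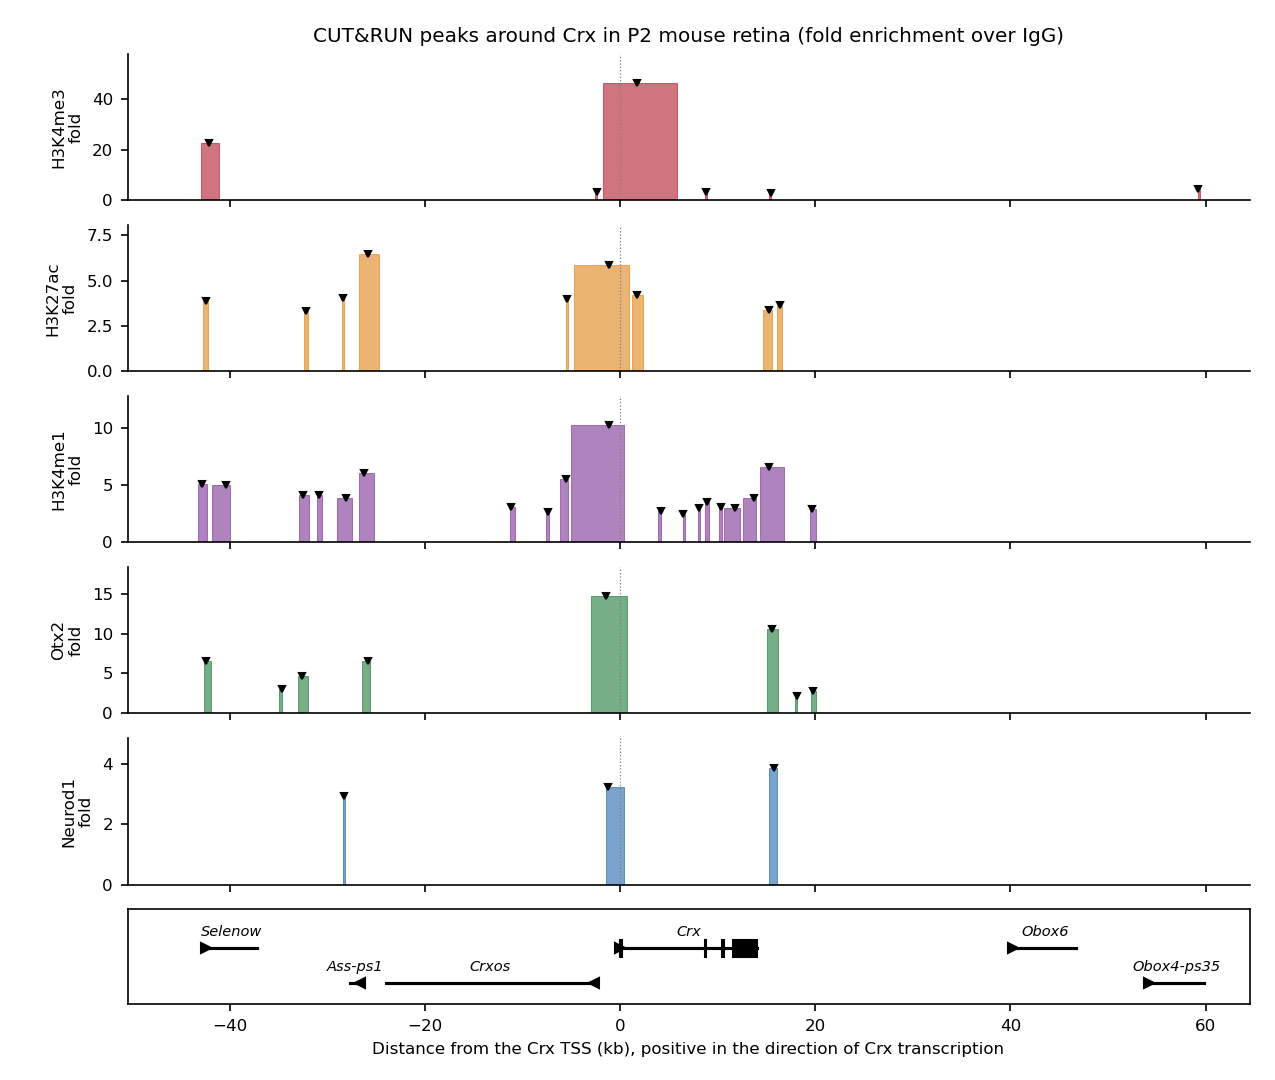
All 45 peaks of the window. The x axis is the distance from the *Crx* TSS in kb, the panels are targets, box heights are fold enrichment over IgG, triangles are summits, and the lowest panel shows the genes with an arrowhead at each start and boxes for the *Crx* exons. Most factor and acetylation peaks lie at the promoter, past the 3′ end near +15.5 kb and between −25.9 and −42.5 kb, with lower Otx2 peaks at +18156 and +19778 bp and an H3K27ac peak at −5404 bp, and no peak lies from +20.04 to +59.17 kb.

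Between *Crxos* and *Selenow*, 3 distal elements held a factor peak with H3K27ac. The highest H3K27ac peak of the window, at chr7:15904736-15906745 with a fold of 6.45 and a width of 2010 bp, exceeded the promoter peak and ranked 2441st of 62930, so 3.88% of the list was as high. The Otx2 peak inside it, at chr7:15905657-15906391, had a fold of 6.61 and its summit at −25886 bp, 11 bp from the H3K27ac summit. H3K4me1 had a fold of 6.05 there, and H3K4me3 and Neurod1 had no peak. By class it was an active enhancer, and it overlaps the start of *Ass-ps1*, a processed pseudogene whose TSS lies at −26720 bp. Neither core motif was found in its Otx2 peak.

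A smaller element followed at −28.3 kb. It was the only place in the window where Neurod1 had a peak and Otx2 had none. The Neurod1 peak, at chr7:15908204-15908416, had a fold of 2.96 and a width of 213 bp, and its summit at −28342 bp was 26 bp from that of an H3K27ac peak with a fold of 4.04. In the whole list 82.1% of Neurod1 peaks overlapped an Otx2 peak, and 2 of the 3 did here, while 2 of the 8 Otx2 peaks overlapped Neurod1 beside 13.1% of that list. H3K4me1 reached a fold of 3.88. The peak held no CAGATG, and its nearest CANNTG, the CATGTG in capitals above, was 30 bp from the summit. Of the 3 Neurod1 summits in the window, 2 had a CANNTG in the 150 bp around them, beside 84.1% of the list, and the same 2 had it in the 50 bp around them, beside 43.5%.

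The third distal element, at −32.6 kb, had Otx2 with a fold of 4.73 over 1030 bp, H3K27ac with 3.33 and H3K4me1 with 4.15. Its acetylation had a −log10 q of 4.25, so that with the stricter limit of 5 it became a poised enhancer. An H3K4me1 peak with a fold of 4.19 at −30823 bp overlapped no other target. Farther out, the *Selenow* promoter, whose TSS lies at −42434 bp, had H3K4me3 with a fold of 22.6, H3K27ac with 3.89, H3K4me1 with 5.15 and Otx2 with 6.51, whose summit was 8 bp from the H3K27ac summit. *Selenow* encodes a small selenoprotein and is transcribed in the same direction as *Crx*. Summits at most 10 bp apart were found in 4.35% of all overlapping Otx2 and H3K27ac peaks, and in 1 of the 6 such pairs of the window. Apart from the *Selenow* pair and those near the *Crx* TSS, no overlapping pair in the window was that close. A further H3K4me1 peak with a fold of 5.04 and a summit at −40361 bp, in a coding exon of *Selenow*, overlapped its H3K4me3 peak. The remaining 3 Otx2 peaks were lower, and all had −log10 q under 5. Their folds were 2.87 at +19778 bp, 2.23 at +18156 bp and 3.02 at −34691 bp. The first of them overlapped an H3K4me1 peak with a fold of 2.93, and the others no histone peak. Much of their length was repeat-masked in the reference, at 82.4% for the peak at +19778 bp, 81.9% at +18156 bp and 68.4% at −34691 bp, against 2.99% to 43.4% for the other 5, and the part of repeats in these peaks was not tested.

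By class, 3 of the 8 Otx2 peaks were at promoters, 2 at active enhancers, 1 at a poised enhancer and 2 outside all histone peaks, beside 43.3%, 22.6%, 26.9% and 7.2% of the Otx2 list. H3K27ac overlapped 5 of them, beside 36.2% of the list. Of the 3 Neurod1 peaks, 2 were at promoters and 1 at an active enhancer, beside 25.6% and 40.1% of the Neurod1 list, and none was at a poised enhancer or outside the marks, beside 28.7% and 5.54%. All 3 overlapped H3K27ac, beside 52.3%. The promoter counts of both factors include the element past the 3′ end, where no annotated *Crx* transcript starts. With the −log10 q limit of 5 that element was classed as a poised enhancer. With 8 and 3 peaks these are counts only.

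No Otx2 or Neurod1 summit lay in the *Crx* body, and 7 H3K4me1 summits did, all with folds below the list median of 4.25. From the 5′ to the 3′ side their folds were 2.78 at +4153 bp, 2.52 at +6435 bp, 3.02 at +8058 bp, 3.57 at +8854 bp, 3.10 at +10285 bp, 2.98 at +11759 bp and 3.91 at +13721 bp. The last and highest of them was in the untranslated part of the last exon. A small H3K4me3 peak of 223 bp with a fold of 3.18 lay at +8814 bp in exon 2 of the longest transcript, near the start of a short transcript at +8566 bp. With the wide TSS domain, H3K4me3 peaks covered 43.4% of the gene, beside 34.8% by H3K4me1, 14.7% by H3K27ac, 5.26% by Otx2 and 2.56% by Neurod1.

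The 2 flanks differed. In the 50 kb upstream, H3K4me1 covered 28.0% of bases, H3K27ac 16.5% and Otx2 11.6%. In the 50 kb past the 3′ end the values were 6.14%, 2.77% and 3.74%. The upstream flank starts at the TSS, so it holds the upstream parts of the peaks over the TSS and also the *Selenow* promoter. The peaks over the TSS gave 5027 of its 14004 bp for H3K4me1, 4742 of 8246 bp for H3K27ac and 2986 of 5784 bp for Otx2. The *Selenow* Otx2 peak was another 770 bp, and Otx2 covered 1870 bp past the 3′ end. All 45 peaks together covered 28883 bp, or 25.3% of the window, in 20 separate stretches. The longest stretch without a peak was 39135 bp on the 3′ side and holds *Obox6*, of the oocyte-specific homeobox family, and the only peak beyond it was an H3K4me3 peak with a fold of 4.32 in *Obox4-ps35*. Neither of these 2 genes had a peak of any target within 1 kb of its TSS. Upstream, 13518 bp running from inside *Crxos* to just past its 3′ end had none. Joined over gaps of up to 500 bp, the peaks made 15 elements, of which 2 had all 5 targets, 1 had 4, 3 had 3, 2 had 2 and 7 had 1.

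**Figure D3:**
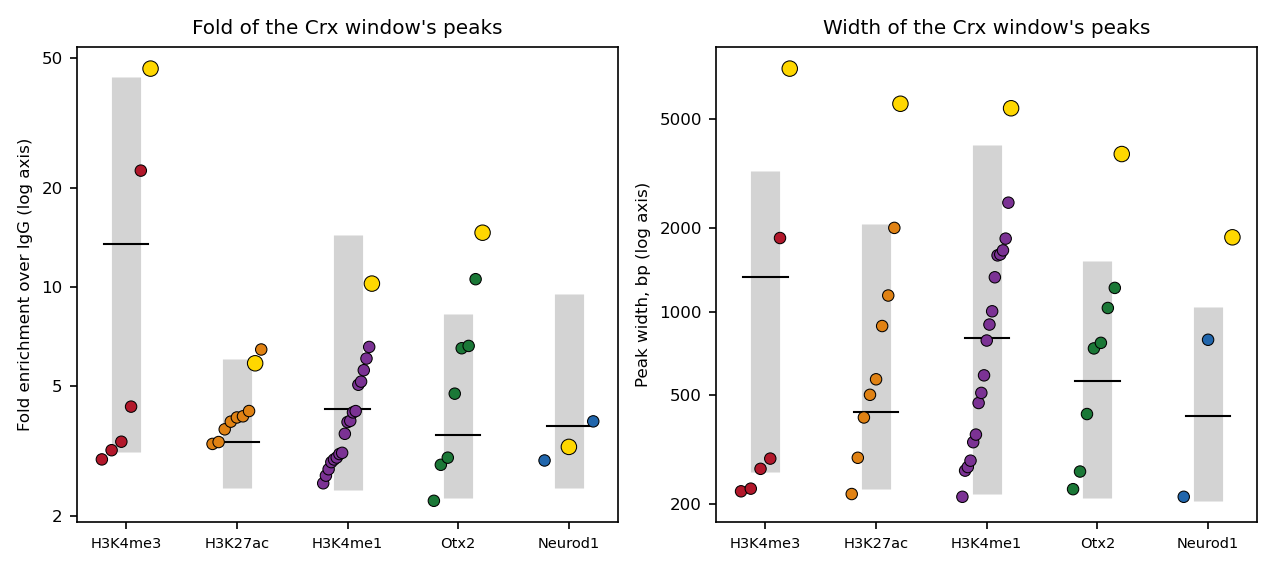
Fold enrichment over IgG (left) and width in bp (right) of the 45 peaks, on log axes, by target. Grey bars span the 5th to the 95th percentile of each whole list, black lines are its median, and the large yellow points are the peaks at the *Crx* TSS. The TSS peak is the widest of the window for every target and lies above the grey bar in width for all 5, while its fold lies above the bar for H3K4me3 and Otx2 only.

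**Figure D4:**
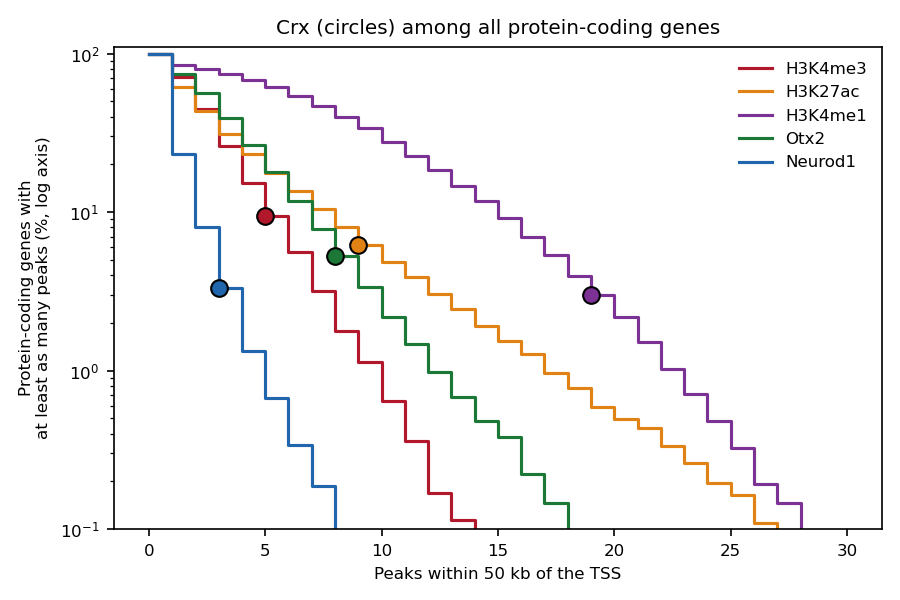
Share of the 21935 protein-coding genes (y axis, percent on a log axis) with at least a given number of peaks within 50 kb of the TSS (x axis), 1 line per target. Circles are *Crx*, which has 5 H3K4me3, 9 H3K27ac, 19 H3K4me1, 8 Otx2 and 3 Neurod1 peaks and lies between 2.98% and 9.40%. With −log10 q of 5 or more, 9060 genes have as many H3K4me3 peaks as *Crx*.

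The number of peaks around *Crx* was above that of most genes without being at the top. Within 50 kb of the TSS it had 19 H3K4me1 peaks against a median of 6, and 2.98% of genes had as many or more, *Crx* included. It had 8 Otx2 peaks against a median of 2, and 5.26% of genes had as many. For Neurod1 it had 3 against a median of 0, with 3.34% of genes at or above it. H3K27ac had 9 against 1 and H3K4me3 5 against 1, with 6.19% and 9.40%. The H3K4me3 rank rested on small peaks, since with −log10 q of 5 or more only 2 were left and 9060 of the 21935 genes had as many or more. By bases covered instead of peaks, the shares were 0.720% for Neurod1, 1.32% for Otx2, 2.22% for H3K27ac, 2.88% for H3K4me3 and 6.72% for H3K4me1, so that only for H3K4me1 did *Crx* rank lower by bases than by peaks. Neighbouring genes share windows, so these shares are descriptions.

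*Crx* was also set beside other genes of the photoreceptor network, with the caveat that the TSS is the 5′ end of the gene record and a gene may use another start. Of 15 factors that act with, before or after *Crx*, 13 had H3K4me3 within 1 kb of the TSS, beside 52.7% of all protein-coding genes, 7 H3K27ac, beside 15.8%, 14 H3K4me1, beside 57.6%, 12 Otx2, beside 46.9%, and 3 Neurod1, beside 4.23%. All 5 targets were present at 2 of them, *Neurod1* itself and *Nrl*, the factor that commits precursors to rods. At *Neurod1* the folds were 40.9 for H3K4me3, 3.55 for H3K27ac, 11.2 for H3K4me1, 9.79 for Otx2 and 11.1 for Neurod1. At *Nrl* they were 24.9, 4.28, 7.22, 3.14 and 3.03 in the same order. None of the 15 had an Otx2 or an H3K27ac fold at the TSS as high as that of *Crx*, beside 0.210% and 1.09% of all protein-coding genes. A higher H3K4me3 fold was found at 5, beside 2.74%, led by *Rax*, an eye field homeobox gene, with 159. For H3K4me1, 6 reached the *Crx* fold, beside 6.69%, and for Neurod1 2, beside 2.16%. *Otx2* itself had H3K4me3 at 3.10 and H3K4me1 at 6.43 there and no Otx2 peak, but 12 Otx2 peaks within 50 kb.

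Among 18 genes of photoreceptor function, 7 had H3K4me3 at the TSS, beside 52.7% of all genes, 5 H3K27ac, beside 15.8%, 13 H3K4me1, beside 57.6%, 10 Otx2, beside 46.9%, and 3 Neurod1, beside 4.23%. For H3K4me3 the list was thus below the share of all genes. None reached the *Crx* fold for H3K4me3, H3K27ac, H3K4me1 or Otx2. Of all protein-coding genes, only 2.74%, 1.09%, 6.69% and 0.210% did, so none among 18 is not by itself a contrast with *Crx*. The closest Otx2 fold was that of *Rbp3*, the retinoid-binding protein of the matrix between photoreceptors, at 13.8, and its Neurod1 fold of 21.3 was above the 3.26 of *Crx*. *Sag*, rod arrestin, had Otx2 at 12.1 and Neurod1 at 5.73, and *Cnga1*, a subunit of the rod channel, had Otx2 at 12.04. Both lists were chosen for their biology with results of these data known, and their counts were not tested against other genes.

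**Figure D5:**
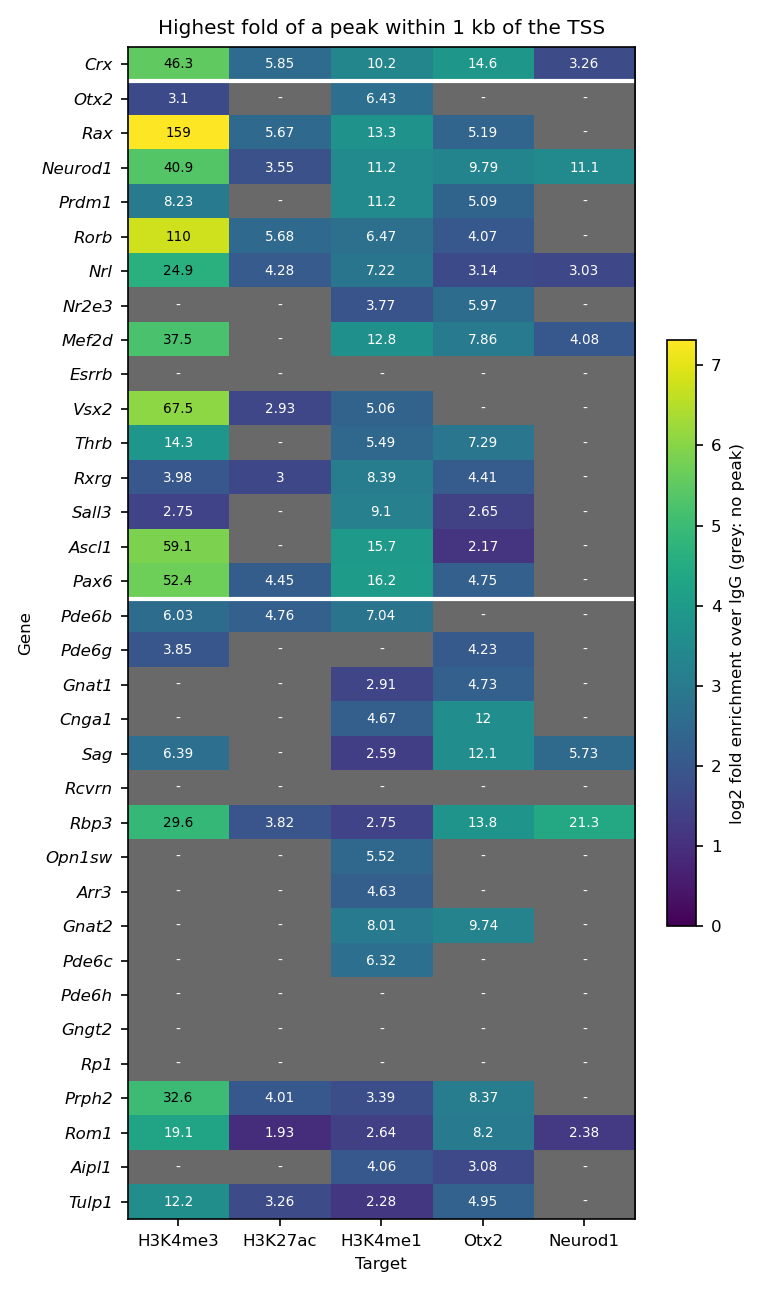
Highest fold enrichment over IgG of a peak within 1 kb of the TSS (rows, genes; columns, targets), coloured on a log2 scale with the fold written in each cell and grey for no peak. *Crx* is the top row, followed by 15 factors and 18 photoreceptor genes; *Crx*, *Neurod1*, *Nrl*, *Rbp3* and *Rom1* have all 5.

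As a check of the tissue label, the 8 retina genes examined, *Crx* included, all had H3K4me3 at the TSS and 6 had H3K27ac. The shares over all protein-coding genes were 52.7% and 15.8%. H3K4me3 was present at 2 of 6 pigment epithelium genes, 1 of 4 endothelial genes (*Kdr*, 55.2) and none of 4 microglial genes, and H3K27ac at none, 1 and 1. Otx2 had a TSS peak at 5 of the 8 retina genes and 3 of the 6 pigment epithelium genes, with a fold of 11.6 at *Dct*. It had one at 1 of 4 endothelial and 1 of 4 microglial genes, beside 46.9% of all protein-coding genes. Within 50 kb of the TSS, however, all 4 endothelial and all 4 microglial genes had H3K27ac peaks, beside 61.3% of all protein-coding genes. There were 17 at *Kdr*, 24 at *P2ry12* and 8 at *Csf1r*, beside 9 at *Crx*, and the other endothelial and microglial genes had 1 to 3. Over all genes, 0.962% had 17 or more and 8.10% had 8 or more. Of the 6 pigment epithelium genes, 2 had an H3K27ac peak in that range. The part of such cells in the peaks around *Crx* was not tested. The 5 protein-coding genes with the TSS pattern most like *Crx*, by the Euclidean distance of log2 fold over the 5 targets, were *Zc3h14* at 0.826, *Stam* at 0.836, *Ndufa4* and *Phf14*, which share 1 promoter, at 0.842, and *Txndc12* at 0.987. All had less Otx2 than *Crx*, with folds of 9.09 to 12.4.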

How the data were processed

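Peak lists for H3K4me3, H3K27ac, H3K4me1, Otx2 and Neurod1 in P2 mouse retina were used. Reads were trimmed by the authors with cutadapt 3.5 and Trim Galore 0.6.4, aligned to GRCm38 with Bowtie2, filtered with SAMtools 1.12 and deduplicated without molecular identifiers by UMI-tools. After technical replicates had been merged, the authors made 1 macs2 call per target over all its libraries, with IgG as control and a q-value limit of 0.05, and removed mitochondrial and blacklisted peaks. Fold enrichment, a ratio to IgG, and the −log10 q-value were used as deposited by the authors and not rescaled. No columns of the authors' comparisons are in these lists, depth is unknown, and joint calls leave no replicate spread, so no test was run. The 13LGS lists served only for the number of peaks in the series.

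Python 3.11.15, pandas 2.3.3, numpy 2.4.6 and matplotlib 3.10.9 were used. Peaks overlapped when they had 1 bp or more in common. A peak counted at a TSS when within 1 kb of it, and of several the highest fold was kept. Genes came from GENCODE M21 and the genome and promoters from RefSeq GRCm38.p6, the build of the lists. On simulated data, overlaps, covered bases and counts over 3000 intervals had 0 differences from bedtools 2.31.1, and 500 of 500 planted motifs were found. Histone classes followed the authors' scheme without its signal requirement, which needs read coverage.

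Named were *Crx*, every annotated gene of the window, the network genes, and the 5 genes nearest to *Crx* in log2 fold over the targets. All H3K4me3, H3K27ac, Otx2 and Neurod1 peaks are given singly. H3K4me1 peaks are given singly where they overlap these or *Crx*, or are highest, and the few others with them. Of the network genes first listed, 1 is not reported here. The members and lists were chosen with earlier results of these data known. Alternatives were a −log10 q of at least 5, a fold of at least 2.5, an overlap of 250 bp, the summit inside the other peak, flanks of 25 and 100 kb, merging within 500 bp, other TSS distances, bases in place of peaks, gene bodies, and other motif windows and forms.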

Additional observations from a re-analysis of the deposited data

How the results depend on the processing

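Of 147 recomputed values, 105 stayed within 1.5 times the reported count or the reported fold, and 42 counts moved further. All 20 folds at the *Crx* TSS, with the TSS distance, q and fold limits varied, were among the 105. Each was the deposited value of the same peak, which covers the TSS and passes every limit used. These 20 therefore say little about stability. Limited to peaks with −log10 q of 5 or more, the window held 2 H3K4me3, 11 H3K4me1 and 5 Otx2 peaks, with Otx2 at 1 active enhancer, 2 poised enhancers and 0 peaks outside the marks, and Neurod1 at 1 promoter, 0 active enhancers and 1 poised enhancer. The genes with at least as many peaks as *Crx* then numbered 9060 for H3K4me3, 590 for H3K27ac, 1601 for H3K4me1, 1828 for Otx2 and 1173 for Neurod1, so the place of *Crx* in H3K4me3 peak number was lost. By bases covered they numbered 631, 487, 1473, 289 and 158 in that order, and 2061, 1358, 653, 1154 and 732 as reported. With gene bodies plus 50 kb they were 3010 for H3K27ac, 2592 for H3K4me1, 1982 for Otx2 and 1106 for Neurod1. A fold of at least 2.5 left 390 genes for H3K4me1 and 1 Otx2 peak outside the marks. Flanks of 25 kb gave 4 Otx2 peaks over 5593 bp and 14505 bp of H3K4me1, and flanks of 100 kb 33665 bp. Genes with a peak over the TSS itself numbered 1020 for H3K27ac, 4836 for H3K4me1, 314 for Neurod1 and 33 for all 5. An overlap of 250 bp put Neurod1 at 1 promoter, 0 active enhancers, 1 poised enhancer and 1 peak outside the marks. With the summit inside the other peak, Neurod1 had 1 promoter and 1 poised enhancer and Otx2 2 poised enhancers. TAATCC within 50 bp was found at 0 Otx2 summits, and CANNTG within 150 bp at 2 Neurod1 summits. The causes of these moves were not tested. The q and fold limits leave fewer peaks, while wider flanks and gene bodies take in more bases, and bases covered are another measure. No paired analysis was possible because each list is 1 joint call over the libraries of its target, and no replicate could be left out for the same reason.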

Other observations

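Between 50 and 100 kb from *Crx*, 16 more peaks were listed, all on the upstream side and none of Neurod1. The highest Otx2 peak among them, with a fold of 12.8, lay at −66.04 kb in a coding exon of *Nop53* within an H3K4me3 peak with a fold of 23.6. In *Ehd2*, which encodes a membrane-shaping ATPase, an H3K4me1 domain with a fold of 14.8 and a summit at −80.59 kb was higher than any H3K4me1 peak of the *Crx* window, and it held an H3K27ac peak with a fold of 4.85 and an Otx2 peak with a fold of 4.32.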
